A study of Mus musculus with 9 samples.

Results

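Gene expression in fibroblastic reticular cells (FRCs) of lymph nodes draining a tumour at day 11 was compared with that in FRCs of nodes draining phosphate-buffered saline (PBS). The comparison used 6 of the 9 bead arrays of the series, 3 for each group, and every gene with a probe detected (detection p under 0.01) on at least 3 of those 6 arrays. This left 7556 of the 19057 genes named on the array. All animals were female C57BL/6 mice, and cells were pooled from 2 brachial nodes of an animal. The remaining 3 arrays, from tumour-draining nodes at day 4, entered the normalization and the estimate of spread, and their values are given where they help to place a gene. The labels give the PBS group no day, so the tumour and the time in the experiment cannot be told apart. The sources used here give neither the tumour cells nor the way the FRCs were isolated.

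FRCs are the fibroblasts that build the meshwork of the T cell zone in a lymph node. They wrap the collagen conduits that carry lymph, and they secrete the chemokines Ccl19 and Ccl21 and the survival factor Il7 that hold T cells and dendritic cells in the node. When a node enlarges the network stretches and its cells divide, and tumour-draining nodes are known to undergo such remodelling.

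The arrays of the groups were not alike in quality. The PBS arrays had 11529, 16489 and 15346 probes detected and the day 11 arrays 11218, 14727 and 9606, a difference within the spread of the arrays (exact two-sided permutation p = 0.2). The median raw intensity was 91.4, 96.1 and 103 on the PBS arrays and 128, 115 and 151 on the day 11 arrays, so every day 11 array was brighter (exact permutation p = 0.1, the smallest that 3 arrays against 3 allow). Across probes, each PBS array correlated with the others of its group at a mean of 0.774 to 0.815, and each day 11 array at 0.909 to 0.921. PBS replicate 1 had few detected probes and was far below the other PBS arrays for some genes, as their values on each array show. Values below are on the log2 scale after background correction and quantile normalization. A change is the day 11 mean minus the PBS mean, with its standard error (SE, 3 arrays per group) and a limma p-value adjusted over all tested probes.

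1 gene rose at day 11 past an adjusted p of 0.05, which is 0.0132% of those tested, and none fell, which is 0%. At an unadjusted p under 0.05 limma gave 519 genes higher and 302 lower. A second, descriptive measure was whether the 3 day 11 values of a gene all lay above, or all below, its 3 PBS values. This held for 868 genes higher at day 11, or 11.5% of those tested, and for 535 lower, or 7.08%. The median change of all genes was 0.07, and 55.6% lay above 0. In simulated data with this design, the same test recovered none of the genes changed by 1 on the log2 scale and 80.5% of those changed by 2. That simulation changed 200 genes by the same amount and adjusted over 7556 genes, not over the 13520 tested probes. Its recovery therefore does not carry over to these data, where Ptx3, with a change of 2.98, did not pass. When the variance estimate was allowed to follow intensity, 12 genes were higher and 3 lower at an adjusted p of 0.05. Genes below are therefore described by their values on each array, and "rose" is kept for the gene that passed.

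**Figure D1:**
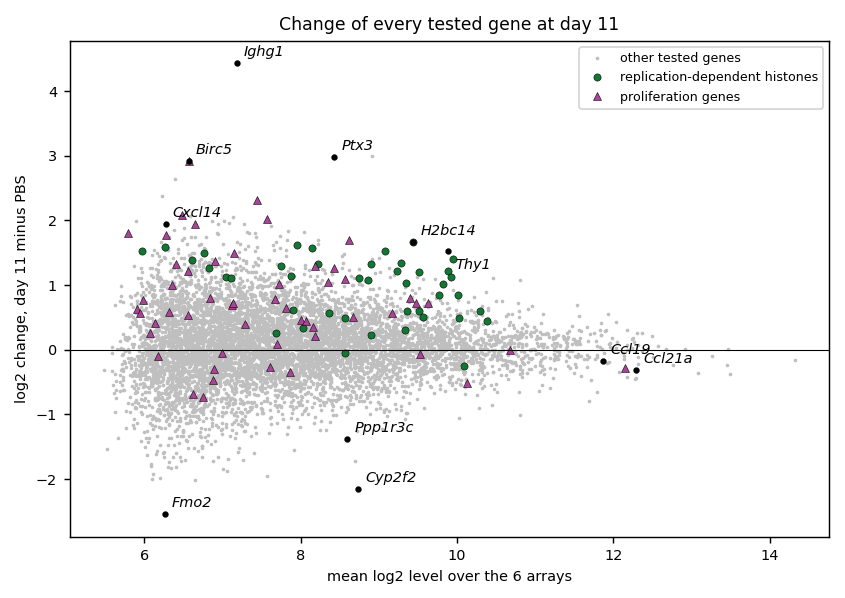
Each point is a tested gene, with its mean log2 level over the 3 PBS and 3 day 11 arrays on the horizontal axis and its log2 change, day 11 minus PBS, on the vertical axis. Green circles are replication-dependent histone genes, purple triangles are proliferation genes, and black points are labelled genes. Ighg1 stands apart at 4.43, and histone genes lie above 0 over the whole range of levels with 2 exceptions.

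Ighg1, on chromosome 12, which encodes the constant region of the immunoglobulin G1 heavy chain and is made by B cells and plasma cells after class switching, rose at day 11. Its level was 5.29, 4.81 and 4.80 on the PBS arrays and 10.04, 9.80 and 8.35 on the day 11 arrays. The probe was detected on every day 11 array and on no PBS or day 4 array, where the highest value was 5.29. Against the detection limit of the PBS arrays its mean of 9.40 ± 0.92 (SD, n = 3) was at least 10.3-fold higher than theirs, whose measured mean was 4.97 ± 0.28 (change 4.43 ± 0.42, adjusted p = 0.0145). The call was lost without PBS replicate 2 (adjusted p = 0.103) or PBS replicate 3 (adjusted p = 0.109), with only the 6 arrays compared here (0.154), without the filter on dim probes (0.115) and with the replicate block (0.0774). Without any 1 of the day 11 arrays the probe was detected on too few arrays to be tested.

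Markers of antibody-secreting cells other than Ighg1 were measured less clearly. Of 11 genes of this list on the array, Ighg1 among them, 6 were tested, 5 of them higher and 1 lower. Ighg1 and Xbp1 were higher without overlap, or 33.3% against 11.5% of all genes, but Ighg1 was tested only through its day 11 arrays. Just 2 members were detected on all 6 arrays, 1 of them (Xbp1) without overlap, against 600 of the 4619 genes so detected. Xbp1, a transcription factor of secretory cells that many cell types use, was at 8.81, 8.78 and 8.51 in PBS and 9.16, 8.97 and 9.49 at day 11 (change 0.50 ± 0.25, adjusted p = 0.477). Jchain, which joins secreted immunoglobulins, was at 6.94, 6.13 and 6.89 in PBS and 6.70, 7.09 and 4.86 at day 11, with no shift in common. Fkbp11, a chaperone abundant in plasma cells, was at 4.74, 7.21 and 5.25 in PBS and 7.44, 7.13 and 7.83 at day 11. The defining plasma cell genes Sdc1, Prdm1, Tnfrsf17, Mzb1 and Derl3 did not pass the detection filter. B cell markers had a median change of -0.40 over 8 tested genes, which was -0.18 without PBS replicate 3, -0.22 without day 11 replicate 3 and -0.05 without the filter. Of these genes 2 were higher, 6 lower and none without overlap, and their median shift on single arrays ran from -0.48 to 0.32 in PBS and -0.80 to 0.02 at day 11. Whether antibody-secreting cells among the FRCs account for Ighg1 was not tested. In whole samples such as these, fewer cells of a type and less RNA per cell cannot be told apart, for this gene and for every marker below.

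Replication-dependent histone genes, which are transcribed while a cell copies its DNA and supply the proteins that package it, were higher at day 11 in nearly every member. This family was picked out after its values were seen. Of 55 members on the array 42 were tested, and 40 were higher at day 11. In 34 of them, or 81.0%, the groups did not overlap, against 11.5% of all genes, and no member was lower without overlap. The median change was 1.10, against 0.07 for all genes. Among the 36 members detected on all 6 arrays, which do not owe their place to the group in which they are bright, 29, or 80.6%, had no overlap, against 600 of the 4619 genes so detected, and the median was 1.02. Under other settings of background correction, scaling, filters and arrays the count without overlap ran from 28 to 38 and the median from 0.82 to 1.14.

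The difference was present in the H2A, H2B, H3 and H4 classes, though not to the same degree. The H2B genes, 10 in number, were all higher with a median of 1.21, and in 9 the groups did not overlap. The medians were 1.13 for 12 H2A genes, 1.32 for 7 H3 genes and 0.47 for 10 H4 genes. H2bc14, which encodes an H2B protein, was at 8.65, 8.63 and 8.53 on the PBS arrays and 10.04, 10.49 and 10.26 on the day 11 arrays. The PBS arrays lay within a tight range, and every day 11 array stood more than 1 above them (change 1.66 ± 0.26, adjusted p = 0.136). H2bc12 was at 9.67, 8.99 and 9.07 in PBS and 10.33, 10.89 and 10.70 at day 11 (1.40 ± 0.28, adjusted p = 0.149). H2bc6 was at 9.47, 9.24 and 9.13 in PBS and 10.39, 10.63 and 10.47 at day 11 (1.22 ± 0.24, adjusted p = 0.145). None of these overlapped, and second probes of H2bc12 and H2bc6 gave 1.12 and 1.14, also without overlap. With the intensity-dependent variance, H2bc14, H2bc12, H2bc6, H2bc11, H3c10, H3c6 and H2ac7 passed, with adjusted p-values of 0.00537, 0.0148, 0.0148, 0.0239, 0.0239, 0.0345 and 0.0498.

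Day 4 arrays lay between the groups for these genes. H2bc14 was at 9.82, 9.51 and 9.18 at day 4. Taken over the 42 genes, the median shift from the PBS mean was -0.25 to 0.18 on the PBS arrays, 0.22 to 0.58 on the day 4 arrays and 0.95 to 1.12 on the day 11 arrays. In the H4 genes this order was not seen, and their day 4 medians of -0.32 to 0.00121 overlapped the PBS range of -0.25 to 0.29 and reached below it. The linker histone H1f2, at 9.96, 10.83 and 9.82 in PBS and 9.70, 10.36 and 9.82 at day 11, and H2ac19 were the members below 0. Histone genes of a class are near-identical copies, so a probe may also catch RNA of its neighbours, and the members are not independent of each other.

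Promoters of 4 of the H2B genes are shown because these genes were higher together and because H2B promoters are known for an octamer element, ATTTGCAT, bound by POU-domain factors. The octamer was searched on both strands in RefSeq windows (build GRCm38.p6) that run from 250 bases before to 50 bases after a gene's start, and matches are in capitals. H2bc14 lies at chr13:21721794-21722093 on the plus strand, H2bc12 at chr13:22035571-22035870 on the plus strand, H2bc6 at chr13:23585921-23586220 on the minus strand (the second of its RefSeq windows, since the first, at chr13:23621045-23621344, has no octamer) and H2bc11 at chr13:22042948-22043247 on the plus strand, each printed 5′ to 3′ along the gene.
H2bc14: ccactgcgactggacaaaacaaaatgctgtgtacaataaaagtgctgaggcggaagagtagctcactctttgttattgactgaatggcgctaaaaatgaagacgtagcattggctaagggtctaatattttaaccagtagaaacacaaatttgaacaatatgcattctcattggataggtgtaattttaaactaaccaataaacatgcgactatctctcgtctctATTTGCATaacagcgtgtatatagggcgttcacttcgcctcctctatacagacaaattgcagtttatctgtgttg
H2bc12: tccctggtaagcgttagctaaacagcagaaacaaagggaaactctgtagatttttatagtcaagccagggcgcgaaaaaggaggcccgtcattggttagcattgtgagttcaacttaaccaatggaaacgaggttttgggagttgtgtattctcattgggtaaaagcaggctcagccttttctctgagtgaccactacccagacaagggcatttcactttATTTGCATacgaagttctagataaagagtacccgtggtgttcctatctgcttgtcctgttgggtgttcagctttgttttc
H2bc6: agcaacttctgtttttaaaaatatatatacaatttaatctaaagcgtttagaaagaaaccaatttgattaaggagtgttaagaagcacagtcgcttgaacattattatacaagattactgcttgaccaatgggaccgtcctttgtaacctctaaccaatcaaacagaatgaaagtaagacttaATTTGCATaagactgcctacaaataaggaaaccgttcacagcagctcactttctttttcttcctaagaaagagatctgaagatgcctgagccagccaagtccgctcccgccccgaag
H2bc11: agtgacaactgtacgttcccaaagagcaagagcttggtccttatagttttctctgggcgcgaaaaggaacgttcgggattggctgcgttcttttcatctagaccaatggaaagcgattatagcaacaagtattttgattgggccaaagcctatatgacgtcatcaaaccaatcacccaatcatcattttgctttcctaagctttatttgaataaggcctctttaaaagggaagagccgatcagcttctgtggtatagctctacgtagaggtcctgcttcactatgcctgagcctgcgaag
The octamer lay within the last 100 bases before the start in H2bc14, H2bc12 and H2bc6, and these exact letters are not in the H2bc11 window, although H2bc11 had a change of 1.20 ± 0.25 (adjusted p = 0.154). Of the 42 tested histone genes, 38 had a window. A gene was counted if any of its windows held the letters. The octamer was in 4 of 8 H2B genes, 2 of 12 H2A genes, 0 of 5 H3 genes and 0 of 10 H4 genes, against 532 of all 27025 genes. A CCAAT box, CCAAT on either strand, was in all 8 H2B, all 12 H2A and all 5 H3 genes but in 3 of 10 H4 genes, against 11096 of all 27025 genes. In no histone window did the octamer and a CCAAT box share a base. These matches describe the letters and show neither binding nor cause.

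**Figure D2:**
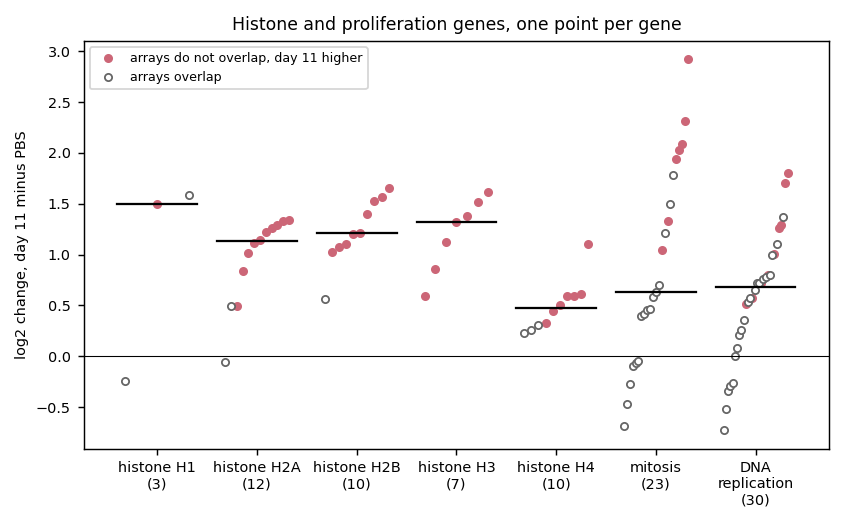
Each point is 1 tested gene and its log2 change, day 11 minus PBS, grouped by histone class or by role in proliferation, with the number of genes in brackets and a bar at the median. Filled points have no overlap between the 3 PBS and 3 day 11 arrays. H2B and H3 genes lie at 0.56 or above, H4 genes lower, and proliferation genes spread from -0.73 to 2.92.

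Genes of mitosis and DNA replication were also mostly higher, with more spread between members. Of 106 on the array, 53 were tested, 42 higher and 11 lower. In 16, or 30.2% against 11.5% of all genes, the day 11 arrays lay above the PBS arrays, while none was lower without overlap. The median was 0.65 over all 53 and 0.57 over the 23 detected on all 6 arrays. Birc5, the survivin of the chromosomal passenger complex, was at 4.68, 4.76 and 5.88 in PBS and 7.76, 8.46 and 7.87 at day 11 (2.92 ± 0.46, adjusted p = 0.136). It was detected on only 1 PBS array, and its other probes gave 0.90 and 1.53 with overlap. Rrm2, a subunit of the ribonucleotide reductase that makes deoxynucleotides, was at 7.74, 7.54 and 7.35 in PBS and 8.40, 9.16 and 8.93 at day 11 (1.29 ± 0.27, adjusted p = 0.164). Its second probe gave 1.63, again without overlap. Cdca3, which promotes entry into mitosis, was detected on no PBS array, with a level at least 2.84-fold higher at day 11, with means of 7.53 against 5.44 (adjusted p = 0.167). The mitotic kinase gene Cdk1 lay the other way within overlapping groups, at 7.22, 6.63 and 7.48 in PBS and 6.99, 6.68 and 6.26 at day 11. On single arrays the list median ran from -0.03 to 0.08 in PBS, 0.08 to 0.50 at day 4 and 0.44 to 0.85 at day 11.

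Among the genes with the lowest p after Ighg1, several encode secreted proteins. Cxcl14, a chemokine made by fibroblasts and epithelia, was at 5.13, 5.16 and 5.60 in PBS and 7.62, 6.87 and 7.24 at day 11. It was detected on all 3 day 11 arrays and on no PBS or day 4 array, with a level at least 2.33-fold higher, with means of 7.24 against 5.30 (adjusted p = 0.136). Ptx3, a pentraxin that binds microbes and complement, was at 5.51, 7.57 and 7.72 in PBS and 10.27, 9.75 and 9.73 at day 11. The day 11 arrays agreed closely while PBS replicate 1 lay far below the other PBS arrays (2.98 ± 0.56, adjusted p = 0.137), and a second Ptx3 probe gave 2.57. Ccn5, a matricellular protein also called Wisp2, was detected on no PBS array, with a level at least 2.63-fold higher at day 11, with means of 7.42 against 5.04 (adjusted p = 0.136). It was detected on all day 4 arrays too, at 6.60, 7.83 and 6.58. Lgals9, the glycan-binding galectin-9, was at 5.33, 5.87 and 5.18 in PBS and 7.27, 7.28 and 7.37 at day 11, and its day 4 values of 5.85, 6.30 and 5.59 stayed near PBS (1.85 ± 0.29, adjusted p = 0.136).

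The other genes at that end of the order act inside the cell. Asns, which makes asparagine, was at 4.83, 6.04 and 5.77 in PBS and 7.35, 7.49 and 7.99 at day 11 (2.07 ± 0.36, adjusted p = 0.136). Ifi211, an interferon-inducible gene of the PYHIN family, was at 7.69, 7.55 and 8.19 in PBS and 9.56, 9.20 and 9.11 at day 11, with day 4 values of 7.87, 7.77 and 8.14 inside the PBS range (1.48 ± 0.27, adjusted p = 0.137). These genes had no overlap between the groups. Exosc9, a subunit of the RNA exosome, had a change of 1.42 ± 0.27 (adjusted p = 0.137). Cmc2, a mitochondrial protein with a role in cytochrome oxidase assembly, had 1.62 ± 0.29, and Commd10 had 1.80 ± 0.32, each with an adjusted p of 0.136 and detected on 1 PBS array.

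**Figure D3:**
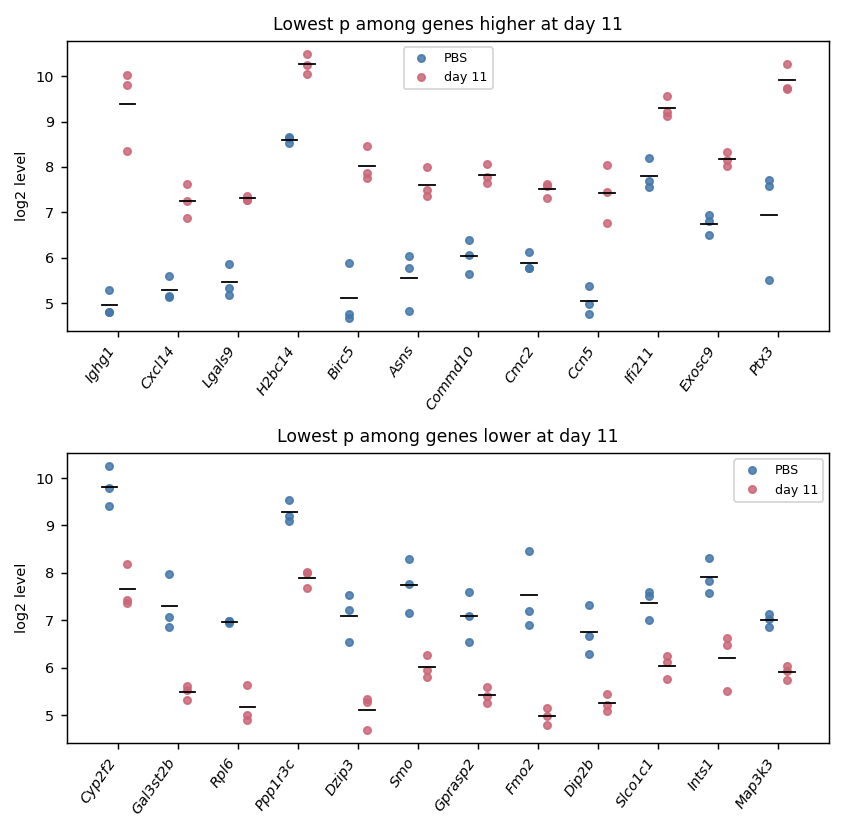
Log2 level on each array for the 12 genes higher (upper panel) and the 12 lower (lower panel) at day 11 with the lowest limma p among genes with no overlap, PBS in blue and day 11 in red, with bars at the group means. The genes were chosen for this separation, and only Ighg1 passed an adjusted p of 0.05. Levels of different genes come from different probes and are not comparable.

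The genes lower at day 11 with the lowest p included enzymes of drug and retinoid metabolism, a list that as a whole was divided. Cyp2f2, a cytochrome P450, was at 10.25, 9.78 and 9.41 in PBS and 8.18, 7.44 and 7.36 at day 11, with day 4 values of 8.90, 8.87 and 8.91 in between (-2.15 ± 0.31, adjusted p = 0.136). Fmo2, a flavin monooxygenase, was at 7.20, 8.47 and 6.91 in PBS and was detected on no day 11 array, so that PBS was at least 2.08-fold higher, with means of 7.53 against 4.99 (adjusted p = 0.137). Inmt, an indolethylamine methyltransferase, was at 11.65, 11.23 and 11.06 in PBS and 10.49, 9.94 and 10.45 at day 11 (-1.02 ± 0.28, adjusted p = 0.242), and its second probe gave -1.002, also without overlap. Of 19 tested genes of xenobiotic and retinoid metabolism, 8 were higher and 11 lower, with 4 and 5 without overlap, or 21.1% and 26.3% against 11.5% and 7.08% of all genes. Among the higher ones, the glutathione transferase Gstp1 was at 7.71, 7.90 and 7.83 in PBS and 8.79, 8.78 and 8.20 at day 11 (0.78 ± 0.27, adjusted p = 0.327).

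Ppp1r3c, which directs a phosphatase to glycogen, was at 9.54, 9.21 and 9.10 in PBS and 8.03, 7.68 and 8.004 at day 11 (-1.38 ± 0.25, adjusted p = 0.136). It was bright on all arrays, and its day 4 values of 8.60, 8.85 and 8.65 lay between the groups. With the intensity-dependent variance Cyp2f2, Ppp1r3c and Inmt were the 3 genes past the threshold on the lower side, with adjusted p-values of 0.00537, 0.0423 and 0.0499. Most other genes at this end were dim. Ints1, a subunit of the Integrator complex that processes small nuclear RNAs, had a change of -1.70. Gal3st2b, Dzip3, Gprasp2, Dip2b, Slco1c1 and Map3k3 were detected on all PBS arrays and on no day 11 array, and PBS was at least 1.79-fold, 1.55-fold, 1.54-fold, 1.23-fold, 1.88-fold and 1.46-fold higher. Smo, the transducer of hedgehog signals, was at 8.29, 7.17 and 7.77 in PBS and below detection at day 11 (at least 2.42-fold, adjusted p = 0.136), while a second, dimmer probe gave 0.14 ± 0.37 with overlap. Over all genes, 108 were detected on 3 PBS and 0 day 11 arrays and 11 on 3 day 11 and 0 PBS arrays. Fewer probes were detected on the day 11 arrays on average, 11850 against 14455, and the part of that difference in these genes was not tested.

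Genes that identify FRCs were present in both groups. Of 23 on the array 18 were tested, all detected on all 6 arrays, with 9 higher and 9 lower. The median change of 0.04 ran from 0.01 to 0.17 when 1 array was left out. In 5 members, or 27.8% against 11.5% of all genes, the day 11 arrays lay above the PBS arrays, and in none below. Pdpn, podoplanin, a surface protein of FRCs that controls their contractility, was at 9.63, 9.70 and 9.99 in PBS and 10.32, 10.47 and 10.75 at day 11 (0.74 ± 0.25, adjusted p = 0.316). It is also among the lymphatic endothelial markers below. Thy1, a glycoprotein anchored on fibroblasts and T cells, was at 8.84, 8.96 and 9.56 in PBS and 10.46, 10.49 and 11.01 at day 11 (1.53 ± 0.31, adjusted p = 0.149, and 0.0189 with the intensity-dependent variance). Of 11 tested T and NK cell markers 5 were higher and 6 lower, none free of overlap, and their median ran from -0.29 to 0.23 when 1 array was left out. The part of T cells in the Thy1 level was not tested. Vim, the intermediate filament vimentin, had a change of 0.87 ± 0.26 (adjusted p = 0.276), and a second probe gave -0.10. Pdgfra, a growth factor receptor of the FRC lineage, was at 11.04, 10.73 and 10.62 in PBS and 10.85, 10.38 and 10.59 at day 11 and overlapped, and Pdgfrb did not pass the detection filter.

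Markers of adventitial reticular cells, the CD34-positive fibroblasts around vessels and in the capsule, were mostly higher. Of 17 tested, 15 were higher and 2 lower. Free of overlap were 6 and 1, or 35.3% and 5.88% against 11.5% and 7.08% of all genes. The median of 0.76 was 0.30 without PBS replicate 1. Ly6c1, a surface antigen shared with endothelium, was at 7.87, 8.03 and 8.74 in PBS and 9.50, 9.58 and 9.77 at day 11 (1.40 ± 0.31, adjusted p = 0.167). Mfap5, a microfibril protein, was at 6.92, 7.43 and 7.84 in PBS and 8.05, 9.59 and 9.46 at day 11 (1.64 ± 0.53, adjusted p = 0.303). Cxcl14, above, belongs to this list as well. Gsn, the actin-severing gelsolin, lay the other way, at 10.69, 10.84 and 10.32 in PBS and 10.13, 9.84 and 10.12 at day 11 (-0.59 ± 0.29, adjusted p = 0.476).

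Of 7 tested chemokines in the list of homeostatic chemokines and survival factors, only Cxcl14, above, was free of overlap, or 14.3% against 11.5% of all genes. Those that position lymphocytes showed no separation at day 11. Ccl19, a ligand of Ccr7 on T cells and dendritic cells, was at 12.30, 11.95 and 11.63 in PBS and 11.79, 11.60 and 11.95 at day 11 (-0.18 ± 0.26). Ccl21a, the other Ccr7 ligand, was at 12.70, 12.42 and 12.21 in PBS and 12.36, 11.85 and 12.18 at day 11 (-0.31 ± 0.26), and its probe cannot separate it from near-identical Ccl21 copies. Cxcl12, which retains cells through Cxcr4, had -0.14 ± 0.22, and its 3 other probes gave -0.16 to -0.28. Cxcl13, which draws B cells, was at 11.49, 12.15 and 12.06 in PBS and 12.09, 11.998 and 11.93 at day 11. Its change of 0.11 ± 0.27 was -0.04 with 75th percentile scaling and -0.10 without PBS replicate 1. Il7, which keeps naive T cells alive, was at 9.56, 8.74 and 8.68 in PBS and 8.58, 8.77 and 8.33 at day 11 (-0.43 ± 0.30, adjusted p = 0.611), with a second probe at -0.79. All of these overlapped between the groups, and their adjusted p-values lay between 0.611 and 0.909, which does not show that the levels were equal.

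**Figure D4:**
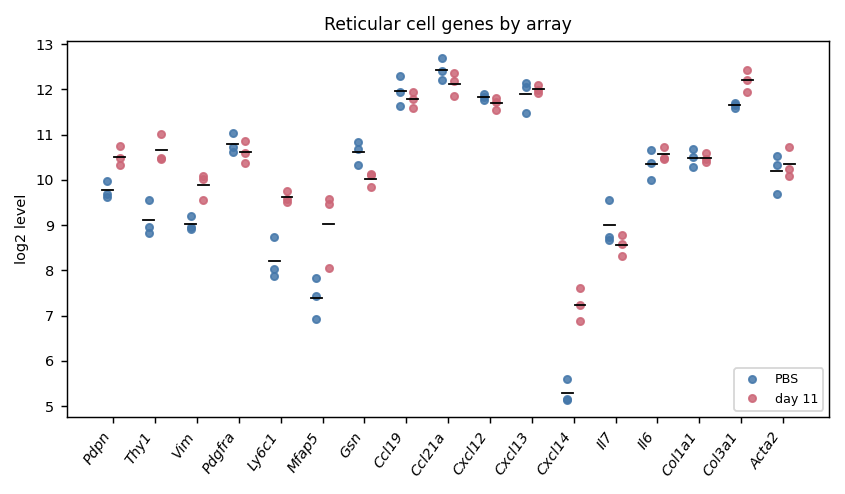
Log2 level on each PBS (blue) and day 11 (red) array for FRC markers, adventitial markers, chemokines, cytokines and structural genes, with bars at the group means. Pdpn, Thy1, Vim, Ly6c1, Mfap5, Cxcl14 and Col3a1 show no overlap with day 11 above, Gsn none with day 11 below, and Ccl19, Ccl21a, Cxcl12, Cxcl13, Il7, Il6, Pdgfra, Col1a1 and Acta2 overlap.

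Genes that make energy and protein lay above PBS in most members, by small amounts. Of 68 tested subunits of the mitochondrial respiratory chain, 62 were higher, with a median of 0.37. In 25, or 36.8% against 11.5% of all genes, the day 11 arrays lay above the PBS arrays, and in none below. Without PBS replicate 2 that count was 40, and the count over all genes was 1473 of 6827. All 14 ATP synthase subunits were higher, with 8 (57.1%) free of overlap and a median of 0.44. So were 32 of 33 subunits of complex I, with 10 (30.3%) free of overlap. Ndufa9, an accessory subunit of complex I, was at 7.46, 8.03 and 7.84 in PBS and 8.38, 8.91 and 8.74 at day 11 (0.90 ± 0.27, adjusted p = 0.275). Atp5j, coupling factor 6 of ATP synthase, was at 9.12, 9.76 and 9.30 in PBS and 9.93, 10.23 and 10.34 at day 11 (0.77 ± 0.28, adjusted p = 0.349), and a second probe gave 0.55. On single arrays the list median ran from -0.16 to 0.20 in PBS, 0.14 to 0.39 at day 4 and 0.33 to 0.43 at day 11.

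Of 61 tested mitochondrial ribosomal protein genes 45 were higher, with 14 free of overlap above, 1 below and a median of 0.36 that was 0.22 without PBS replicate 1. Mrpl18 had the lowest p, at 7.55, 7.19 and 7.46 in PBS and 8.70, 8.79 and 8.66 at day 11 (1.32 ± 0.27, adjusted p = 0.149). Of 55 cytosolic ribosomal protein genes 45 were higher. Here 16 (29.1%) were free of overlap above and 2 (3.64%) below, against 11.5% and 7.08% of all genes. The median of 0.20 was 0.09 with 75th percentile scaling. Rpl17 was at 4.81, 8.17 and 7.56 in PBS and 8.32, 8.36 and 8.87 at day 11, with PBS replicate 1 far below the rest (1.67 ± 0.71). Rpl6 lay the other way. It was at 6.94, 6.99 and 6.99 in PBS, was detected on no day 11 array, with a level at least 1.42-fold higher in PBS (adjusted p = 0.136). Day 4 values of Rpl6 were 5.68, 4.83 and 4.86, as low as at day 11.

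Of 32 proteasome subunits 30 were higher, with a median of 0.38. In 9, or 28.1% against 11.5% of all genes, the day 11 arrays lay above without overlap, and in 1 below. The count above was 15 without PBS replicate 2, where 1473 of 6827 genes were free of overlap above. It was 14 without day 11 replicate 1, where 1152 of 7376 were. Psmd14, the deubiquitinase of the proteasome lid, was at 8.95, 8.32 and 8.73 in PBS and 9.55, 9.65 and 9.52 at day 11 (0.91 ± 0.26, adjusted p = 0.243), and a second probe gave 1.76. Of 26 genes of the secretory pathway 22 were higher, 9 (34.6%) free of overlap, with a median of 0.27. Sec61b, a part of the channel through which proteins enter the endoplasmic reticulum, was at 6.45, 6.65 and 6.78 in PBS and 7.22, 7.76 and 7.97 at day 11 (1.02 ± 0.34, adjusted p = 0.321). Of 11 glycolytic enzymes 9 were higher and 4 (36.4%) free of overlap, with a median of 0.45. Pgk1, phosphoglycerate kinase, had a change of 0.99 ± 0.34 (adjusted p = 0.326). Hypoxia-responsive genes were divided, with 9 of 18 higher. Adm, the vasodilator peptide adrenomedullin, was at 5.57, 6.27 and 6.00 in PBS and 7.62, 7.18 and 7.07 at day 11 (1.34 ± 0.29, adjusted p = 0.164). Pfkfb3, a driver of glycolytic flux, had 1.32 ± 0.31 and was detected on 1 PBS array. The angiogenic factor Vegfa lay the other way, at 11.16, 11.11 and 10.69 in PBS and 10.60, 10.62 and 10.61 at day 11 (-0.38 ± 0.28, adjusted p = 0.643). Another Vegfa probe was at -0.42, also without overlap, and the remaining probe at -0.002 with overlap.

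Cholesterol synthesis genes were higher in 8 of 10 cases, 3 free of overlap (30% against 11.5% of all genes), with a median of 0.46. Fdps, which makes farnesyl pyrophosphate, was at 6.01, 6.92 and 7.24 in PBS and 7.76, 7.91 and 7.67 at day 11 (1.06 ± 0.32, adjusted p = 0.278). Its day 4 values of 7.52, 7.63 and 7.45 were also above PBS. Beyond Asns, the amino acid response list was divided, with 13 of 23 higher. Psat1, of serine synthesis, was at 5.01, 7.06 and 7.23 in PBS and 8.05, 8.31 and 8.37 at day 11, with PBS replicate 1 far below the rest (1.81 ± 0.59, adjusted p = 0.313). The transcription factor Cebpb was at 9.26, 9.20 and 9.20 in PBS and 8.32, 8.62 and 8.92 at day 11 (-0.60 ± 0.24, adjusted p = 0.390).

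**Figure D5:**
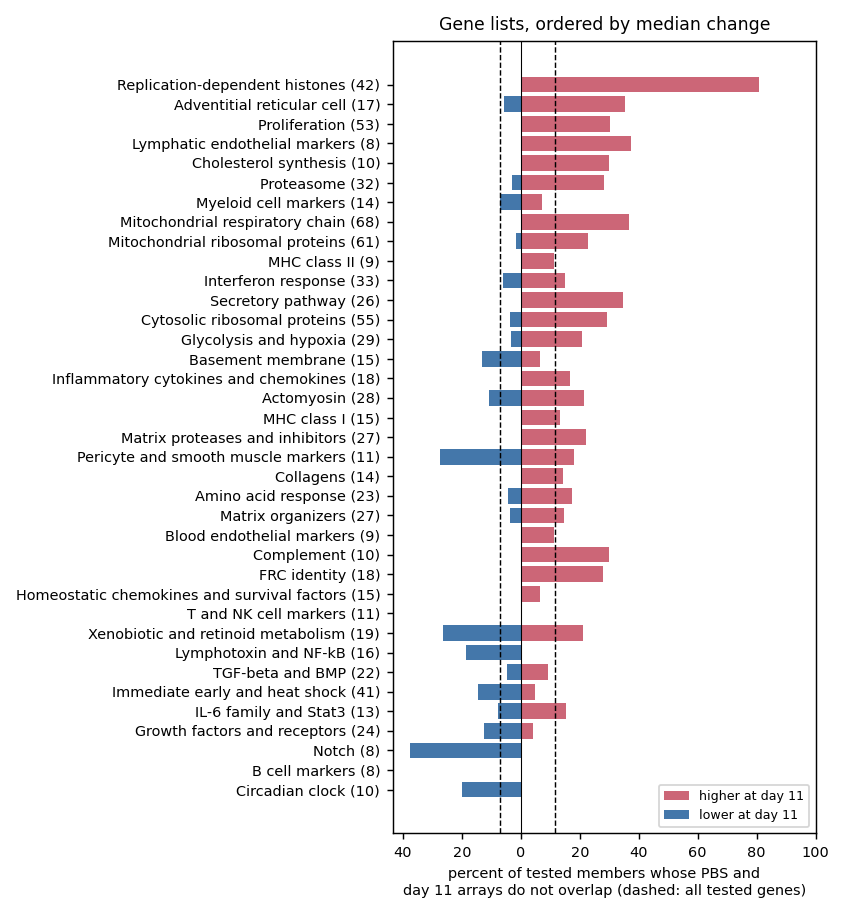
For each gene list with at least 8 tested members, bars give the percent of those members whose 3 day 11 arrays lie above (red) or below (blue) the 3 PBS arrays, ordered by median change, with the number of tested members in brackets. Dashed lines mark 11.5% above and 7.08% below for all tested genes. Histones reach 81.0% above, and Notch genes 37.5% below. That Notch share is 3 of 8 members, 1 of which (Notch2) was detected on no day 11 array.

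Interferon-induced genes lay on both sides of PBS. Of 33 tested, 26 were higher and 7 lower with a median of 0.28, and 5 and 2 were free of overlap, shares of 15.2% and 6.06% that lie near the background. The median was 0.18 without day 11 replicate 3. Isg15, a ubiquitin-like protein, was at 7.50, 6.89 and 6.75 in PBS and 8.54, 8.30 and 8.91 at day 11, with day 4 values of 6.36, 6.97 and 6.98 (1.54 ± 0.31, adjusted p = 0.149). Bst2, or tetherin, which holds budding virus at the cell surface, was at 6.78, 7.11 and 6.04 in PBS and 8.10, 8.30 and 8.12 at day 11 (1.53 ± 0.38, adjusted p = 0.200). Gbp4, a guanylate-binding protein, lay the other way and was detected on all PBS arrays and no day 11 array, with a level at least 1.48-fold higher in PBS (adjusted p = 0.179). Genes of MHC class I presentation were higher in 13 of 15 cases, 2 of them free of overlap (13.3%), including Psmb8 of the immunoproteasome at 0.90 ± 0.39 with a second probe at 0.86. MHC class II genes were higher in 8 of 9 cases with 1 free of overlap (11.1%). Both shares lie near the 11.5% of all genes.

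Of 18 tested inflammatory genes 12 were higher. Ptx3, Osm and Ccl7 were free of overlap, or 16.7% against 11.5% of all genes, and none was lower without overlap. Osm, a cytokine of the Il6 family, was at 4.93, 6.97 and 6.84 in PBS and 7.57, 8.02 and 7.42 at day 11, with PBS replicate 1 far below the rest (1.42 ± 0.49, adjusted p = 0.326). Il6, which FRCs secrete, was at 10.67, 10.002 and 10.38 in PBS and 10.49, 10.46 and 10.74 at day 11 and overlapped. Of 10 complement genes 5 were higher and 5 lower. In 3, or 30% against 11.5% of all genes, day 11 was higher without overlap, and in none lower. Cfb, factor B of the alternative pathway, was at 10.58, 10.66 and 10.64 in PBS and 11.01, 10.95 and 10.78 at day 11, a small difference without overlap (0.28 ± 0.23, adjusted p = 0.674).

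Of 14 tested collagens 10 were higher, 2 free of overlap, or 14.3% against 11.5% of all genes. Col3a1, of the fibrillar collagen in reticular fibres, was at 11.65, 11.70 and 11.59 in PBS and 11.94, 12.22 and 12.44 at day 11 (0.55 ± 0.24, adjusted p = 0.424), with a second probe at 0.82 and no overlap in either. Col1a1 was at 10.51, 10.68 and 10.28 in PBS and 10.40, 10.46 and 10.60 at day 11, within the same range. Timp1, an inhibitor of matrix metalloproteases, was at 5.62, 6.64 and 7.25 in PBS and 8.21, 7.97 and 8.77 at day 11 (1.81 ± 0.45, adjusted p = 0.200), with a second probe at 1.65. In the list of proteases and their inhibitors 6 of 27, or 22.2% against 11.5% of all genes, were higher without overlap and none lower. In the basement membrane list 1 of 15 was higher and 2 lower without overlap, the latter 13.3% against 7.08% of all genes. Lama5, a laminin chain of basement membranes, was at 7.67, 8.02 and 7.54 in PBS and 6.80, 6.90 and 6.58 at day 11 (-0.98 ± 0.28, adjusted p = 0.250), and the matricellular Postn was at 10.04, 10.05 and 9.96 in PBS and 9.43, 9.58 and 9.91 at day 11.

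The contractile apparatus was mixed. Of 28 actomyosin genes 21 were higher. Free of overlap were 6 above and 3 below, or 21.4% and 10.7% against 11.5% and 7.08% of all genes. Pfn1, the actin-binding profilin, was at 7.59, 8.27 and 7.94 in PBS and 8.93, 8.79 and 8.56 at day 11 (0.83 ± 0.35, adjusted p = 0.408), and a second probe gave 0.71. Actn4, an actin crosslinker, was at 8.11, 8.29 and 8.19 in PBS and 7.20, 6.68 and 5.93 at day 11 (-1.60 ± 0.32, adjusted p = 0.149), but its other probes gave -0.30 with overlap and 0.68 without, so its direction depends on the probe. Acta2, smooth muscle actin, was at 10.54, 10.34 and 9.70 in PBS and 10.08, 10.24 and 10.72 at day 11 and overlapped. Its change of 0.15 ± 0.30 lay below 0 without PBS replicate 3 (-0.09) or day 11 replicate 3 (-0.04). Its other probes gave 0.54, 0.42 and 0.96, all with overlap, and the mean of its probes 0.52.

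Several signalling lists lay slightly below 0. Of 24 growth factors and receptors 18 were lower, with a median of -0.15 that was -0.08 without day 11 replicate 2. Free of overlap were 3 below and 1 above, or 12.5% and 4.17% against 7.08% and 11.5% of all genes. Igfbp3, which binds insulin-like growth factors, was at 12.46, 11.90 and 11.90 in PBS and 11.69, 11.17 and 11.04 at day 11 (-0.79 ± 0.28, adjusted p = 0.337), and its second probe gave -1.37, again without overlap. Angpt2, which loosens vessel walls, was at 9.53, 8.80 and 8.86 in PBS and 8.38, 8.15 and 8.53 at day 11 (-0.71 ± 0.30, adjusted p = 0.424). Vegfd, a lymphatic growth factor, lay above PBS at 6.999, 7.34 and 7.34 against 5.39, 6.75 and 5.84 (1.23 ± 0.46, adjusted p = 0.357). In the TGF-beta and BMP list 15 of 22 were lower, and the receptor gene Tgfbr2 was at 9.09, 9.32 and 9.46 in PBS and 10.24, 9.85 and 9.98 at day 11 (0.73 ± 0.25, adjusted p = 0.325), while its other probes gave 0.12 and 1.12 with overlap.

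All 8 tested Notch pathway genes were lower, 3 of them free of overlap, or 37.5% against 7.08% of all genes. Notch2, 1 of the 3, was tested only through its PBS arrays, since no day 11 array detected it. Only 4 members were detected on all 6 arrays, all lower and 2 free of overlap, against 306 of the 4619 genes so detected. The median of the 8 genes, -0.32, was -0.18 without PBS replicate 1 and -0.19 without PBS replicate 2. Notch3, a receptor of mural cells, was at 9.01, 8.18 and 8.54 in PBS and 8.08, 7.98 and 7.92 at day 11 (-0.58 ± 0.27, adjusted p = 0.455). Jag1, a ligand, was at 8.84, 8.83 and 8.83 in PBS and 8.59, 8.74 and 8.63 at day 11, a small and uniform difference (-0.18 ± 0.23). Of 10 circadian clock genes 9 were lower, 2 free of overlap, or 20% against 7.08% of all genes. That count was 4 without PBS replicate 2, where 886 of 6827 genes were lower without overlap. It was also 4 without day 11 replicate 3, where 763 of 7453 were, and 1 on the mean of a gene's probes. Clock, the transcription factor that drives the cycle, was at 8.77, 8.63 and 9.04 in PBS and 7.81, 8.13 and 7.998 at day 11 (-0.83 ± 0.26, adjusted p = 0.280), with other probes at -0.21 and -0.72. The sources used here do not give the hour at which nodes were taken. Among genes of lymphotoxin and NF-kB signalling, Rela, the p65 subunit, was at 10.87, 10.75 and 10.88 in PBS and 9.92, 10.30 and 10.34 at day 11 (-0.65 ± 0.24, adjusted p = 0.354).

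Immediate early genes, which respond within minutes to stimuli that include tissue digestion, were lower in 22 of 28 cases, 5 free of overlap, or 17.9% against 7.08% of all genes. Btg2, an antiproliferative gene of this class, was at 11.28, 11.15 and 10.92 in PBS and 10.49, 10.45 and 10.45 at day 11 (-0.65 ± 0.25, adjusted p = 0.360). Jun, of the AP-1 factor, was at 10.18, 9.92 and 9.77 in PBS and 9.71, 9.30 and 9.49 at day 11 (-0.45 ± 0.24, adjusted p = 0.510). Heat shock genes did not share this direction as clearly, with 5 of 13 higher. The small heat shock protein gene Hspb8 was at 11.58, 11.86 and 11.99 in PBS and 12.19, 12.14 and 12.39 at day 11 (0.43 ± 0.24). The part of cell handling in these values was not tested.

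Markers of other cells of the node were measured in both groups. Of 30 myeloid genes on the array 14 were tested, 12 higher and 2 lower, with a median of 0.37. Only Ctss, cathepsin S, was higher without overlap (0.51 ± 0.29), while Fcer1g was lower without overlap. Each is 7.14% of the list, against 11.5% higher and 7.08% lower of all genes. The median shift of this list on single arrays ran from -0.05 to 0.17 in PBS and from 0.03 to 0.56 at day 11, so the groups overlapped. Blood endothelial genes had 9 tested members with 1 free of overlap, Ly6c1, a share of 11.1%. Their array medians overlapped, from -0.23 to 0.15 in PBS and from -0.18 to 0.43 at day 11. Lymphatic endothelial genes had 8 tested members, 7 higher and 3 (37.5%) free of overlap, which were Pdpn, Thy1 and Ptx3, genes that FRCs also express. Pericyte and smooth muscle genes were split, 6 higher and 5 lower, with Cspg4, the mural cell proteoglycan NG2, at 7.59, 7.55 and 7.29 in PBS and 7.05, 6.74 and 6.62 at day 11 (-0.68 ± 0.27, adjusted p = 0.380). All 4 tested adipocyte genes were lower with overlap, and neither of the 2 tested melanocyte genes was free of overlap. The part of these cells in the results above was not tested.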

How the data were processed

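RNA was amplified from whole transcripts and hybridised to Illumina mouse bead arrays with 45281 probes. The authors deposited raw bead intensity values and a detection p-value beside each, per the file headers, and a separate table of normalized intensity values made with lumi, per the submitters' processing notes. A note deposited with them describes a detection filter, a variance-stabilizing transformation, quantile normalization and limma. The annotation is GEO's, and 34807 of 34885 probes with 1 symbol matched RefSeq. The raw intensities of all 9 arrays were background-corrected from the detection p-values (offset 16), quantile normalized and put on the log2 scale with neqc in limma 3.58.1 (R 4.3.3); the deposited values were not on a log2 scale. Probes detected (p under 0.01) on at least 3 of the 6 PBS and day 11 arrays were tested, 13520 probes of 7556 genes, with lmFit and eBayes over all 9 arrays (6 residual degrees of freedom), and p-values were adjusted by Benjamini-Hochberg across every tested probe. A gene is given by its tested probe with the highest mean. Where no array of a group detected a probe, a bound ("at least") set the brighter mean against the dim group's detection limit. The precision is limited by 3 arrays per group. The study text pools nodes within an animal and names triplicates, without stating that the triplicates are separate animals, so p-values measure the spread between these arrays.

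Named genes are first the 12 higher and 12 lower with the lowest limma p among genes without overlap and detected on all arrays of the brighter group. Clone or locus names were left out of these 12, as were genes with probes lying opposite ways without overlap. Next come up to 3 members per list and direction with the lowest p among those without overlap, with no such further conditions. Every gene past an adjusted p of 0.05 and a fixed set of FRC genes were also named. The members and lists were chosen with earlier results of these data known. Cdk1, Fkbp11, Jchain, H1f2, H2ac19, H2bc11, H3c10, H3c6 and H2ac7 were named after their values were seen. Deviations of the arrays with the same replicate number did not correlate (r = 0.012, 0.020 and -0.012). With 3 arrays per group this cannot settle whether the numbers pair arrays, which the labels do not state. Alternatives covered background correction, scaling, the authors' processed values, arrays, filters, variance prior, array weights, a replicate block, probes per gene and leaving out each array. The pipeline was tested on simulated data.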

Additional observations from a re-analysis of the deposited data

How the results depend on the processing

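The count of genes past an adjusted p of 0.05 in limma, 1 higher and 0 lower, was 3 and 1 without background correction and 12 and 3 with a variance prior that follows intensity. It was 0 higher with only the 6 PBS and day 11 arrays (533 and 318 genes at an unadjusted p below 0.05), without a filter on dim probes (1043 and 672), with the replicate block (526 and 304) and at an adjusted p under 0.01. Leaving out 1 array gave 0 to 1 higher. Ighg1 had an adjusted p between 0.00125 and 0.154 over 13 alternatives and passed in 8. It was 0.0774 with the replicate block, 0.154 with only the 6 arrays and 0.115 without the filter. The labels do not state whether replicate numbers pair the arrays. The genes free of overlap, 868 higher and 535 lower, numbered 1568 and 1293 without the filter, 678 and 623 with 75th percentile scaling, 1108 to 1473 and 763 to 960 when 1 array was left out, since fewer arrays overlap less often.

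Of 2058 values for 132 named genes under the alternatives, 2031 kept their direction and side of the threshold, 12 passed only in the alternative, 5 no longer passed and 10 changed sign. Those that changed sign were Cxcl13 (0.11) at -0.0378 with 75th percentile scaling, and, on the mean of a gene's probes, Osmr (0.17) at -0.30 and Rps3 (-0.13) at 0.15. With 1 array left out, Cxcl13 ran from -0.0986 to 0.226, Col1a1 from -0.111 to 0.0918 and Acta2 from -0.0928 to 0.328. The cause was not tested. The histone median stayed between 0.82 and 1.14 over 14 alternatives, the proliferation median between 0.43 and 0.79 and the respiratory chain median between 0.29 and 0.46. Slide as a block was not run, because no slide is given in the sources used here. Many probes lay near background in 1 group, so the size of their change is a bound or is uncertain.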
